A study of Mus musculus with 8 samples.

Results

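The 8 genes described here are Dusp5, Dusp6, Ptpn11, Ptpn22, Bcl2, Nlk, Sirt1 and Gpd1l, which were brought together as reported targets of the microRNA miR-181. The reports themselves were not checked, and that for Gpd1l is the least certain. They were picked by symbol from a deposited expression table of 16505 genes, and all 8 were found there and passed the filter on low values. The table covers epididymal white adipose tissue, a visceral fat depot, of C57BL/6 mice. It holds 4 wild-type (WT) and 4 Mir181 double-knockout libraries. The mice of all 8 libraries had eaten a high fat diet for 12 weeks, and there was no group on another diet. The labels give no sex, age or litter and do not say which miR-181 loci are missing or whether each library is 1 mouse, so the p-values cover only the variation among these 8 libraries, which may be partly technical. The question asked of each gene is whether its mRNA is higher in the knockout, as would be predicted if the microRNA lowered it. The table has no row for a miR-181 transcript, and the loss of the microRNA could not be checked in it.

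A microRNA guides a silencing complex to messenger RNAs that pair with its seed, bases 2 to 8 from its 5′ end, mostly in the 3′ untranslated region (3′ UTR). Pairing lowers the level or the translation of the mRNA, so a target can change in protein without changing in mRNA. In T cells miR-181a is known for tuning the strength of receptor signalling through several phosphatases at once. The miR-181 family was also named in the title of this series, which concerns the microbiota, adipose inflammation and obesity.

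The mature miR-181 sequences are shown because all the matches described below are to one shared seed. They are from the RefSeq table for mouse build GRCm38.p6, in which 6 miR-181 loci give 4 mature 5p sequences. The capitals mark the seed.
miR-181a-5p: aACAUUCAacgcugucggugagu
miR-181b-5p: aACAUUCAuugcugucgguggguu
miR-181c-5p: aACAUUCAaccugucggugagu
miR-181d-5p: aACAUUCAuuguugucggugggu
The 4 sequences have the seed ACAUUCA in common and differ only after it. In that build miR-181a lies at chr1:137966468-137966490 and chr2:38852741-38852763, both on the plus strand, and miR-181b lies beside it at chr1:137966650-137966673 and chr2:38853845-38853868. The miR-181c and miR-181d loci lie at chr8:84178924-84178945 and chr8:84178759-84178781 on the minus strand.

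Pairing sites were searched on the mRNA strand as TGAATGT (pairs with bases 2 to 8, called 7mer-m8, or 8mer when an A follows) and as GAATGTA (bases 2 to 7 and an A, called 7mer-A1). A 7mer-A1 inside an 8mer was not counted again. In the GENCODE M21 transcript with the longest 3′ UTR of each gene, 6 of the 8 genes held at least 1 match there and 2 held none. The 9 matches of the 6 genes are printed with the bases before them, with the match in capitals, because they show how the genes differ.
Bcl2 8mer: gagggattataataatcaggacTGAATGTA
Bcl2 first 7mer-A1: agagagagaataaaaagtttcagGAATGTA
Bcl2 second 7mer-A1: accattcatctgtattaacgttgGAATGTA
Gpd1l 8mer: cctagattagaaacttcacctgTGAATGTA
Gpd1l 7mer-m8: tacagacacacacgcacatgagTGAATGTg
Nlk 7mer-m8: ttcaatgtggagacttgaaactTGAATGTc
Sirt1 7mer-m8: ggaactttagcatgtcaaaaaaTGAATGTt
Dusp5 7mer-m8: aataagttcccgtaaacccatgTGAATGTg
Dusp6 7mer-A1: ttttgagctggaatttattataaGAATGTA
The 8mers, the longest of these matches, were found in Bcl2 and Gpd1l only. Dusp5 held 1 more 7mer-m8 in its coding part. Ptpn11 and Ptpn22 held no match of 7 or more bases in the 3′ UTR or the coding part. Each held a single shorter match, GAATGT, which lay in the 3′ UTR of Ptpn11 and in the coding part of Ptpn22.

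Longer UTRs hold such matches more often, so each gene was set beside tested genes with a 3′ UTR of 0.8 to 1.25 times its length. The Ptpn11 UTR is long (3635 bases) and 48.2% of UTRs of that length held a match. The Ptpn22 UTR is short (207 bases), and 2.54% of UTRs of that length held one. For Bcl2 (5086 bases) the share was 59.2% and for Gpd1l (3065 bases) 42.6%. For Nlk, Sirt1, Dusp6 and Dusp5 (1753, 1631, 1190 and 1109 bases) it was 28.7%, 27.2%, 21.7% and 20.6%. Over all 12844 tested genes with an annotated 3′ UTR, 23.6% held a match. A match describes the letters of an annotated transcript, and the 3′ ends in use in this tissue were not measured.

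**Figure D1:**
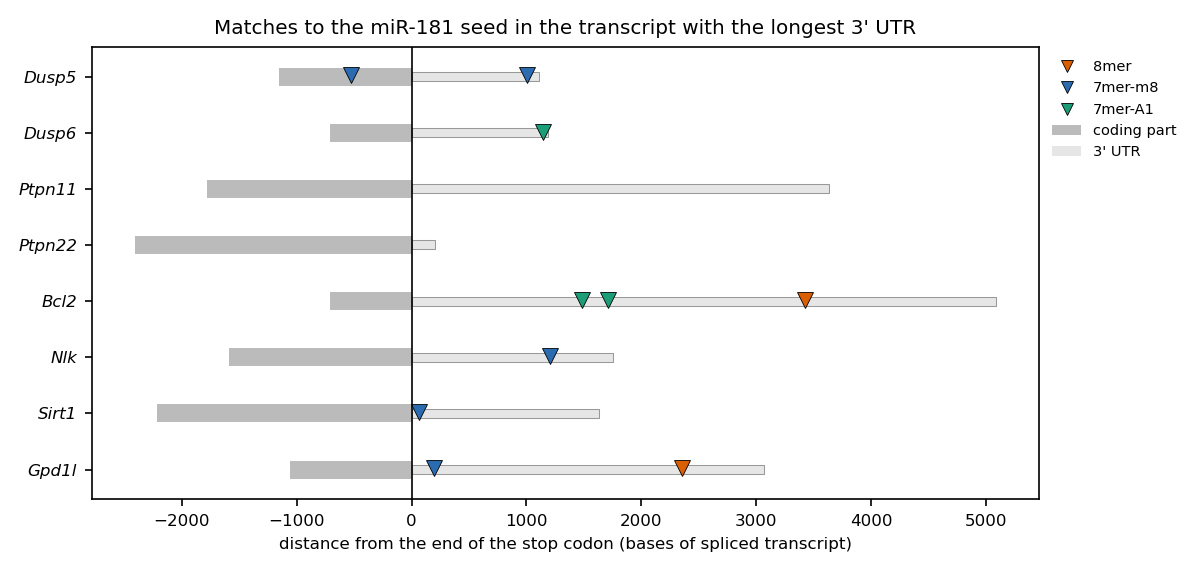
Coding part (dark bars, left of 0) and 3′ UTR (light bars, right of 0) of the transcript with the longest 3′ UTR of each gene, in bases from the end of the stop codon. Triangles mark matches to the miR-181 seed by type, with 8mers in Bcl2 and Gpd1l and no triangle for Ptpn11 and Ptpn22.

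The answer was mixed. Ptpn11, Bcl2 and Gpd1l rose in the knockout, Ptpn22 fell, and Dusp5, Dusp6, Nlk and Sirt1 did not pass the threshold. Passing means an adjusted p under 0.05 in limma over all 13797 tested genes. Of the 8 genes 3 were higher and 1 lower. Among all tested genes 38.8% passed, with 22.7% higher and 16.1% lower, so these counts stand close to the background. The median difference of the 8 genes was 0.25 on the log2 scale against 0.18 for all tested genes. In 3 of the 8 genes every knockout value lay above every WT value, and in 1 every knockout value lay below, where the shares of all tested genes were 20.8% and 16.6%. Values are log2 CPM (CPM being read counts scaled to the library total, with 0.5 read added), group values are means ± SD with n = 4, and differences are knockout minus WT ± SE from limma.

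**Figure D2:**
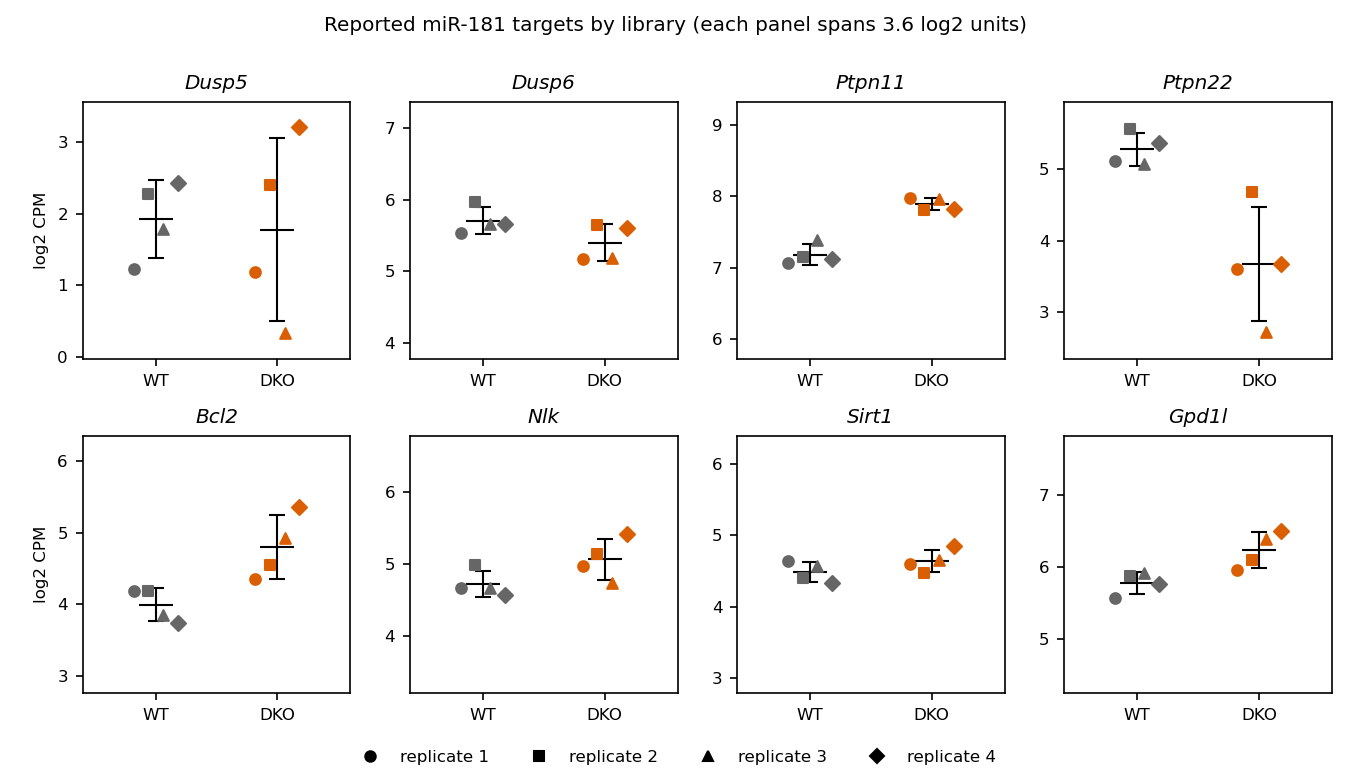
Log2 CPM of the 8 genes in each library (WT grey, knockout DKO orange, symbol by replicate number), with the group mean and SD in black. The groups are apart for Ptpn11, Ptpn22, Bcl2 and Gpd1l and overlap for Dusp5, Dusp6, Nlk and Sirt1.

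Libraries differed in ways that touch these values. Totals ran from 4081597 to 15410736 reads in WT and from 3736881 to 76838584 reads in the knockout. Knockout replicates 2, 3 and 4 were deeper than every WT library, so depth went largely with genotype. Ribosomal RNA genes took over 1% of reads in WT replicates 1, 3 and 4 and knockout replicate 1, and epididymis markers took over 1% in WT replicate 2 and knockout replicates 2 and 4. Adipocyte markers, which define the tissue, were present in all libraries and 11 of 11 rose, with a summed level of 7235 to 12402 CPM in WT and 17443 to 28117 CPM in the knockout. The adipocyte hormone gene Adipoq rose by 2.13 ± 0.24 (adjusted p = 0.000231). Macrophage markers fell in 11 of 12 (8325 to 9824 against 1813 to 2344 CPM) and general leukocyte markers in 7 of 8 (3013 to 3559 against 572 to 1032 CPM), with none rising. All 8 endothelial markers rose (425 to 560 against 845 to 1160 CPM), and fibroblast and progenitor markers gave 1 higher and 3 lower of 8 (7343 to 9579 against 3143 to 4398 CPM). No tested T cell (7) or B cell (4) marker passed in limma, and the summed levels were 8.0 to 14.5 against 19.7 to 26.2 CPM and 6.47 to 13.2 against 8.56 to 16.3 CPM. Red blood cell markers rose in 2 of 5 (276 to 465 against 419 to 11935 CPM), and none of 15 tested epididymis markers passed (3.92 to 14860 against 4.82 to 25772 CPM). No marker listed in the table was at 0 reads in all 4 libraries of a group. The part of these shifts in the differences below was not tested.

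Among the phosphatases, Ptpn11 and Ptpn22 changed in opposite directions. Ptpn11 encodes SHP2, a tyrosine phosphatase with paired SH2 domains that carries signals from growth factor receptors to the RAS and ERK pathway. Its level was 7.06, 7.15, 7.39 and 7.12 in WT replicates 1 to 4 and 7.98, 7.81, 7.96 and 7.82 in knockout replicates 1 to 4. All 4 knockout libraries lay above all 4 WT libraries, and the spread within each group was small beside the gap. The mean rose from 7.18 ± 0.15 to 7.89 ± 0.09, a difference of 0.71 ± 0.10 (95% interval 0.48 to 0.94, limma adjusted p = 0.000824), or 1.64-fold. The call held under each of 20 alternative fits, with differences from 0.57 to 0.78 and adjusted p from 0.000411 to 0.00824. Within the libraries with more ribosomal RNA the Ptpn11 difference was 0.79 (3 WT and 1 knockout) and within those with less it was 0.71 (1 WT and 3 knockout). Ptpn11 was thus the member with the firmest rise, and it is one of the 2 members without a 7-base match to the seed in the 3′ UTR. Relative to the mean of the adipocyte markers Ptpn11 was lower by 1.46 in the knockout, since those markers rose further than it did.

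Ptpn22 encodes the lymphoid tyrosine phosphatase of blood cells, a brake on antigen receptor signalling. Its level was 5.11, 5.55, 5.07 and 5.37 in WT replicates 1 to 4 and 3.61, 4.68, 2.73 and 3.67 in the knockout. All knockout libraries lay below all WT libraries, and the knockout spread was wide, with replicate 2 nearest to WT and replicate 3 farthest from it. The mean fell from 5.28 ± 0.23 to 3.67 ± 0.80, a difference of -1.60 ± 0.35 (95% interval -2.40 to -0.81, limma adjusted p = 0.00669), or 3.04-fold lower. The call held under all 20 alternatives, from -2.02 to -1.29 with adjusted p from 0.000645 to 0.0236. Within the classes of ribosomal RNA the Ptpn22 differences were -1.58 and -1.86. The direction was opposite to the predicted one, in a gene whose annotated transcript holds no match of 7 bases.

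The leukocyte markers fell alongside Ptpn22. The pan-leukocyte gene Ptprc, encoding CD45, differed by -2.08 ± 0.20 (adjusted p = 0.000115) and the macrophage gene Adgre1, encoding F4/80, by -2.90 ± 0.16 (adjusted p = 1.26e-05). Relative to the mean of the 8 leukocyte markers, Ptpn22 stood at -3.04, -2.78, -3.14 and -2.96 in WT and at -2.99, -1.98, -3.16 and -2.18 in the knockout. On this scale the groups overlapped, and the difference was 0.40, the opposite sign to that of the unscaled level. Relative to the 12 macrophage markers the groups also overlapped (difference 0.43). Relative to the 7 tested T cell markers, which did not pass, every knockout value lay below every WT value (difference -2.36). In bulk tissue, fewer cells of a type and less RNA per cell cannot be told apart.

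**Figure D3:**
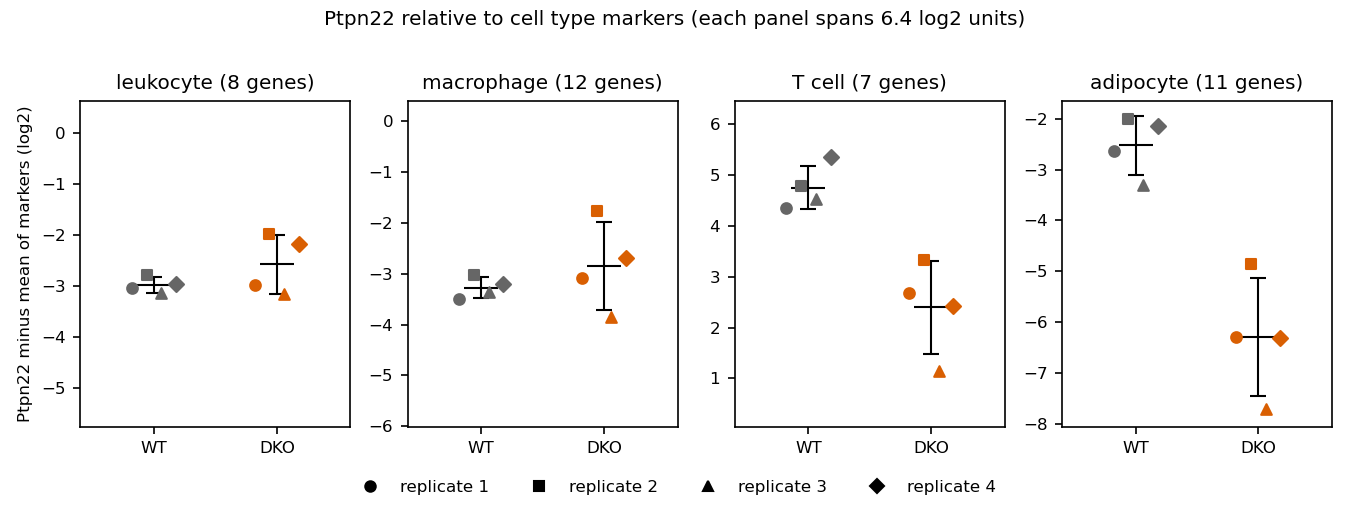
Ptpn22 minus the mean of 4 marker lists, in log2 units, 1 point per library (WT grey, knockout DKO orange), with the group mean and SD in black. The groups overlap relative to leukocyte and macrophage markers and are apart relative to T cell and adipocyte markers. The T cell markers rest on few reads.

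The dual-specificity phosphatases Dusp5 and Dusp6 switch off ERK by removing its activating phosphates, Dusp5 in the nucleus and Dusp6 in the cytoplasm, and both are themselves induced by ERK. Dusp6 stood at 5.53, 5.98, 5.66 and 5.66 in WT replicates 1 to 4 and at 5.17, 5.64, 5.19 and 5.61 in the knockout. All 4 knockout values lay below the WT mean, and 2 of them, replicates 2 and 4, overlapped the WT range. The difference was -0.31 ± 0.15 (95% interval -0.65 to 0.04, adjusted p = 0.137), so that a rise of more than 1.03-fold lay outside the interval. The highest Dusp6 values of both groups came from the libraries with over 1% of epididymis reads, and without these 3 libraries the difference was -0.44 (adjusted p = 0.068). The downward call depended on the scaling. Dusp6 passed as lower with median centring (-0.45, adjusted p = 0.0119), quantile normalization (-0.37, adjusted p = 0.0394) and voom on whole reads with median-ratio size factors (-0.47, adjusted p = 0.0167), and in a fit with a term for ribosomal RNA class (-0.47, adjusted p = 0.0313).

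Dusp5 had the lowest read counts of the 8 genes. It was covered by 9, 74, 23 and 31 reads in WT replicates 1 to 4 and by 8, 403, 45 and 187 reads in the knockout, which gave levels of 1.22, 2.27, 1.79 and 2.42 against 1.19, 2.39, 0.33 and 3.20. The knockout libraries enclosed the WT range on both sides. Counting error alone put the Dusp5 level of WT replicate 1 between 1.01 and 4.19 CPM (exact Poisson 95% interval), while knockout replicates 3 and 4, at 1.24 CPM (0.904 to 1.66) and 9.20 CPM (7.92 to 10.6), differed by more than it. The difference between the groups was -0.15 ± 0.60 (95% interval -1.50 to 1.20, adjusted p = 0.858), and its interval runs from 0.354-fold to 2.30-fold. The sign turned without WT replicate 4 (0.02), knockout replicate 1 (0.05) or knockout replicate 3 (0.33), and the difference was -1.06 (adjusted p = 0.158) without the 3 libraries with epididymis reads. At this spread neither a rise nor a fall of 2-fold could be told from no change.

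Bcl2 and Nlk stand for cell survival and Wnt signalling. Bcl2 encodes the founding anti-apoptotic protein of its family, which holds back pore formation in the mitochondrial membrane. It was measured at 4.19, 4.19, 3.84 and 3.74 in WT replicates 1 to 4 and at 4.36, 4.54, 4.92 and 5.36 in the knockout. Every knockout library lay above every WT library, by a narrow margin for knockout replicate 1. The mean rose from 3.99 ± 0.23 to 4.80 ± 0.45, a difference of 0.81 ± 0.23 (95% interval 0.29 to 1.32, limma adjusted p = 0.0205), or 1.75-fold. The Bcl2 call ended without WT replicate 3 (0.76, adjusted p = 0.0556), WT replicate 4 (0.72, adjusted p = 0.064) or knockout replicate 3 (0.76, adjusted p = 0.0562), without the libraries with epididymis reads (0.71, adjusted p = 0.0602) and with a term for ribosomal RNA class (0.59, adjusted p = 0.0753). Its direction was the same in all 20 alternatives, and the within-class differences were 0.43 and 0.76. Relative to the T cell markers, which rest on few reads, Bcl2 differed by 0.05 with overlapping groups. Against the leukocyte markers Bcl2 was higher by 2.81. Against the adipocyte markers it differed by -1.36, with every knockout value below every WT value.

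Nlk encodes a serine/threonine kinase that phosphorylates the TCF and LEF factors of the Wnt pathway and lowers their activity. Its level was 4.66, 4.99, 4.66 and 4.57 in WT replicates 1 to 4 and 4.97, 5.14, 4.73 and 5.41 in the knockout. All 4 knockout values lay above the WT mean, and the groups overlapped through WT replicate 2. The difference was 0.34 ± 0.16 (95% interval -0.02 to 0.71, adjusted p = 0.123) and passed in none of the 20 alternatives, where it ran from 0.16 to 0.46. The interval reaches up to 1.64-fold. The highest Nlk values of both groups came from the libraries with over 1% of epididymis reads, and without them the difference was 0.22 (adjusted p = 0.408).

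Sirt1 and Gpd1l are metabolic members. Sirt1 encodes a NAD-dependent deacetylase that responds to the energy state of the cell. It stood at 4.64, 4.40, 4.57 and 4.33 in WT replicates 1 to 4 and at 4.60, 4.47, 4.65 and 4.84 in the knockout. The groups overlapped, with knockout replicates 3 and 4 above the highest WT library and WT replicates 2 and 4 below the lowest knockout library. The difference was 0.16 ± 0.13 (95% interval -0.13 to 0.44, adjusted p = 0.354), and the interval ends at 1.36-fold. It was nearly the same as the median of all genes, and with median centring it was 0.01.

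Gpd1l encodes a relative of the cytosolic glycerol 3-phosphate dehydrogenase that links glycolysis to lipid assembly. Its level was 5.56, 5.87, 5.91 and 5.77 in WT replicates 1 to 4 and 5.95, 6.10, 6.39 and 6.51 in the knockout. The lowest knockout library, replicate 1, lay just above the highest WT library, replicate 3, so the groups did not overlap. The mean rose from 5.78 ± 0.16 to 6.24 ± 0.26, a difference of 0.46 ± 0.14 (95% interval 0.14 to 0.79, limma adjusted p = 0.0305), or 1.38-fold. This call was the least firm of the 3 rises and held in 13 of 20 alternatives. It ended with median centring (0.32, adjusted p = 0.0516), with a term for ribosomal RNA class (0.34, adjusted p = 0.114), without the libraries with epididymis reads (0.43, adjusted p = 0.124) and without WT replicate 1 (0.39), WT replicate 4 (0.46), knockout replicate 3 (0.41) or knockout replicate 4 (0.37), with adjusted p from 0.073 to 0.0832 for these 4. Within the classes of ribosomal RNA the Gpd1l differences were 0.21 and 0.47. Relative to the adipocyte markers Gpd1l was lower by 1.71 in the knockout.

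**Figure D4:**
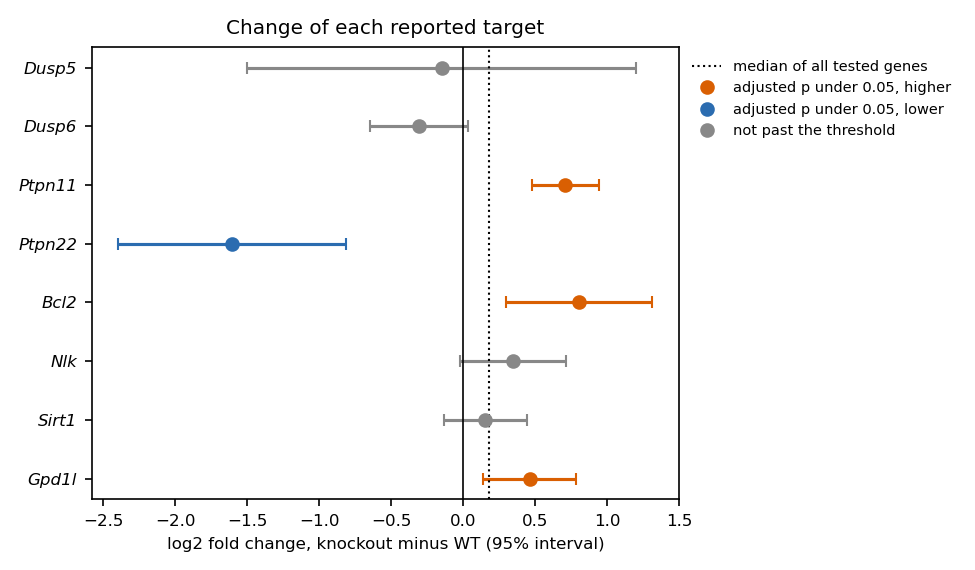
Log2 fold change (knockout minus WT) of each gene with its 95% interval from limma, coloured by call, with a dotted line at the median of all tested genes (0.18). The intervals of Ptpn11, Bcl2 and Gpd1l lie above 0, that of Ptpn22 lies below 0, and the widest belong to Dusp5 and Ptpn22.

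The calls were also set beside the seed matches. Of the 2 members with an 8mer, Bcl2 and Gpd1l, both rose, with calls that ended in 5 and 7 of 20 alternatives, and Gpd1l is the member whose report is least certain. Of the 4 members with 1 match of 7 bases in the 3′ UTR, Dusp5, Dusp6, Nlk and Sirt1, none passed in either direction. Of the 2 members with none, Ptpn11 rose and Ptpn22 fell. With 8 genes in all, the pattern is given as a description. The share of genes with an 8mer that rose was not computed over all tested genes. Among the tested genes of the lists below, those with an 8mer went both ways. Cbx7, Timp3, Gata6 and Gpd2 rose, Bcl2l11, Prkcd and Tnf fell, and Spry4, Phlda1, Atm and Rassf1 did not pass.

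Per length, the order of the members changed between the groups. In WT the mean level in CPM per kilobase of the transcript was highest for Ptpn11 (26) and Dusp6 (22.3), followed by Ptpn22 (14.2), Gpd1l (12.5), Nlk (5.95), Sirt1 (5.06), Bcl2 (2.22) and Dusp5 (1.58). On this scale the WT ranges of neighbours in the order overlapped except between Dusp6 and Ptpn22, between Gpd1l and Nlk and between Sirt1 and Bcl2. In the knockout the order was Ptpn11 (42.5), Dusp6 (18.1), Gpd1l (17.4), Nlk (7.63), Sirt1 (5.64), Ptpn22 (5.19), Bcl2 (4.0) and Dusp5 (1.80). Ptpn22 thus went from the third to the sixth level, and its knockout range (2.41 to 9.32) overlapped those of Nlk, Sirt1, Bcl2 and Dusp5.

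The named genes whose log2 CPM followed each member most closely over the 8 libraries are named by Pearson's r, which mixes the difference between the groups with variation inside them and with shared depth. For Ptpn11 these were Pla2g16 (0.998) and Retsat (0.997), for Ptpn22 Gcnt1 (0.994), for Bcl2 Fam167a (0.994) and Mllt6 (0.985), and for Gpd1l Nsmaf (0.997) and Tmem242 (0.991). Pla2g16 encodes an adipocyte phospholipase. For Dusp6 they were Gclc (0.979) and Tbpl1 (0.972), for Sirt1 Lbr (0.981) and Paqr8 (0.969), for Nlk Srbd1 (0.967) and Fam110c (0.964), and for Dusp5 Amd1 (0.928) and Fetub (0.916). These are the highest values over the tested genes, with predicted and unnamed genes left out, and carry no test.

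The genes that act with the 8 members were taken from 10 lists. Of 111 tested genes in them, 23 were higher, 28 lower and 60 did not pass, and their median difference was 0.14. In either direction 45.9% passed, against 38.8% of all tested genes. By direction, 22.7% of all tested genes were higher and 16.1% lower, and the counts per list are to be read beside these shares. In the MAP kinase phosphatase list 1 of 8 fell and none rose (median 0.28). With thinned reads, with a ribosomal RNA term and without knockout replicate 1, 1 rose, and with array weights and without knockout replicate 1, 2 fell. The one that fell was Dusp7, a cytoplasmic ERK phosphatase related to Dusp6, which changed from 5.13 ± 0.13 to 4.33 ± 0.20 (-0.80 ± 0.13, adjusted p = 0.0017). Dusp4 and Dusp9 of the same list differed by 0.48 ± 0.24 and -0.60 ± 0.34 without passing. Dusp4 passed once all libraries were thinned to equal depth (0.73, adjusted p = 0.029), and Dusp9 with array weights (-0.85, adjusted p = 0.0271) and without knockout replicate 1 (-0.86, adjusted p = 0.0425).

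In the ERK cascade, 3 of 15 rose and 5 fell (median -0.04). The rises came to 1 under voom with median-ratio size factors, and the falls to 3 without the libraries with epididymis reads. The adaptor Grb2 changed by -0.95 ± 0.09, the GTPase Nras by -0.80 ± 0.09 and the kinase Mapk3, encoding ERK1, by -0.49 ± 0.10. Mapk3 lost its call without the libraries with epididymis reads (-0.39, adjusted p = 0.108). Among feedback and output genes of the pathway, 5 of 15 fell and 1 rose (median -0.17). The rise was lost (0 genes) in 13 of 20 alternatives, including the replicate block and the omission of any library but WT replicate 2 and knockout replicate 1, and 2 rose with array weights and without knockout replicate 1. The AP-1 subunits Fos and Fosl1 changed by -2.39 ± 0.13 and -3.44 ± 0.55, the inhibitor Spred1 by -1.54 ± 0.15 and Myc by -0.95 ± 0.17. Phosphorylated ERK was not measured.

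Partners of SHP2 and related tyrosine phosphatases were mostly lower, with 7 of 11 falling and 1 rising (median -0.70). Without the libraries with epididymis reads 4 fell, and 2 rose with thinned reads, with array weights and without knockout replicate 1. Ptpn6, encoding the blood cell relative SHP1, changed by -1.84 ± 0.14, Sirpa, a myeloid receptor that recruits SHP1 and SHP2, by -2.36 ± 0.19, and Ptpn1 by -1.01 ± 0.12. The docking protein Irs1, which binds SHP2 after insulin stimulation, rose by 1.56 ± 0.34. The relatives of Ptpn22 in the PEST family were lower too. Ptpn18 changed by -1.03 ± 0.27 and lost its call without the libraries with epididymis reads (-0.94, adjusted p = 0.08). Ptpn12 changed by -0.39 ± 0.12 (adjusted p = 0.0353), a call that ended in 10 alternatives, the replicate block (adjusted p = 0.0679) and the omission of WT replicate 2 (-0.38), 3 (-0.35) or 4 (-0.39) or knockout replicate 3 (-0.29) or 4 (-0.38) among them. Several of these genes are expressed mainly in leukocytes, whose markers fell as given above.

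In proximal T cell receptor signalling, the pathway in which Ptpn22 acts, 3 of 12 fell and none rose (median 0.69). In 7 alternatives 1 or 2 genes rose, with 2 under the replicate block, with array weights and without knockout replicate 1, and 1 under log2(CPM + 1), voom with median-ratio size factors, no variance trend and without WT replicate 3. The 3 that fell were the adaptor Lcp2 (-1.49 ± 0.20) and the kinases Fyn (-0.70 ± 0.11) and Csk (-0.59 ± 0.12), which cells other than T cells also express. Of the BCL2 family 3 of 15 tested rose and 5 fell (median -0.30), and Hrk lay under the filter. Of the survival proteins in it, Bcl2l2, encoding BCL-W, rose by 0.72 ± 0.10 and Mcl1 changed by -0.72 ± 0.11, while Bcl2l1, encoding BCL-XL, differed by -0.30 ± 0.19 and passed only without knockout replicate 4 (-0.47, adjusted p = 0.039). Bcl2a1b changed by -3.26 ± 0.26, with uncertain counts because its relatives are nearly identical. The pro-apoptotic Bcl2l11, encoding BIM, changed by -0.88 ± 0.14.

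Among genes of NLK and Wnt transcription 3 of 10 tested rose and 1 fell (median 0.40), with Lef1 under the filter. Without the libraries with epididymis reads 5 rose. The falls came to 0 there and without WT replicate 2 or knockout replicate 3, and to 2 with median centring, quantile normalization, voom with median-ratio size factors and the ribosomal RNA term. Axin2, a feedback target of Wnt signalling, rose by 2.05 ± 0.30, the forkhead factor Foxo1 by 1.22 ± 0.13 and the repressor Tcf7l1 by 1.09 ± 0.24. Tab2, an adaptor of the kinase TAK1 upstream of NLK, changed by -0.30 ± 0.08 and lost its call without WT replicate 2 (-0.29, adjusted p = 0.0578), without knockout replicate 3 (-0.27, adjusted p = 0.0532) and without the libraries with epididymis reads (-0.33, adjusted p = 0.133).

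Of sirtuins and NAD genes 4 of 13 rose and 1 fell (median 0.24). Without the libraries with epididymis reads 2 rose. The falls came to 0 there, with thinned reads and without WT replicate 1, 3 or 4, and to 2 with median centring, voom with median-ratio size factors and the ribosomal RNA term. The mitochondrial sirtuins Sirt3 and Sirt5 rose by 0.88 ± 0.17 and 0.94 ± 0.25, the methyltransferase Nnmt by 1.00 ± 0.18 and the NAD kinase Nadk by 0.46 ± 0.12. Sirt5 lost its call in 5 alternatives, among them quantile normalization (0.63, adjusted p = 0.096), without WT replicate 4 (0.83, adjusted p = 0.053) and without knockout replicate 3 (0.87, adjusted p = 0.0531). Nadk lost it in 3, median centring among them (0.32, adjusted p = 0.0589).

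The glycerol 3-phosphate and prolyl hydroxylase lists, both tied to Gpd1l, had the highest medians of the 10 lists. In the first, 3 of 5 rose and none fell (median 1.00). The mitochondrial dehydrogenase Gpd2, the glycerol channel Aqp7 and the acyltransferase Gpam rose by 1.20 ± 0.25, 1.00 ± 0.20 and 1.36 ± 0.15, and Gpd1, the closest relative of Gpd1l, differed by 0.43 ± 0.17 (adjusted p = 0.0757) and passed without WT replicate 3 (0.58, adjusted p = 0.0116). In the second, 5 of 7 rose and none fell (median 0.74), with the hypoxia factor Epas1 at 0.88 ± 0.15, the prolyl hydroxylases Egln1 and Egln2 at 0.52 ± 0.12 and 0.74 ± 0.18 and the ubiquitin ligase subunit Vhl at 0.60 ± 0.17. The count of rises in this list came to 2 with median centring and to 3 under voom with median-ratio size factors, without the libraries with epididymis reads and without WT replicate 1 or 4, and 1 gene fell with array weights and without knockout replicate 1. Egln1 lost its call with median centring (0.38, adjusted p = 0.0576). Vhl lost it in 5 alternatives, including median centring (0.46, adjusted p = 0.0764) and the omission of WT replicate 1 (0.59, adjusted p = 0.0543) or 4 (0.55, adjusted p = 0.064).

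A further 32 genes named as miR-181 targets in other work were listed from general knowledge, and 26 were tested. Of these 8 rose, 8 fell and 10 did not pass, with a median of -0.06, and 5 rose with median centring, voom with median-ratio size factors or the ribosomal RNA term. Prox1, Il1a and Cd69 lay under the filter, and Cdx2, Tcl1 and Hoxa11 have no row. A seed match in the 3′ UTR was held by 20 of the 26, by 6 of the 8 that rose and by 7 of the 8 that fell. Among all tested genes 22.7% were higher and 16.1% lower, and 23.6% of those with an annotated 3′ UTR held a match. UTR length was not matched for this list, and longer UTRs hold a match more often. The largest statistical support went to Fos and the small GTPase Rap1b among the falls (-2.39 ± 0.13 and -1.11 ± 0.11) and to the scaffold protein Card10 and the hexokinase Hk2 among the rises (1.48 ± 0.16 and 1.41 ± 0.17). Rap1b held 2 seed matches and fell, whereas Card10 and Hk2 held none and rose.

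**Figure D5:**
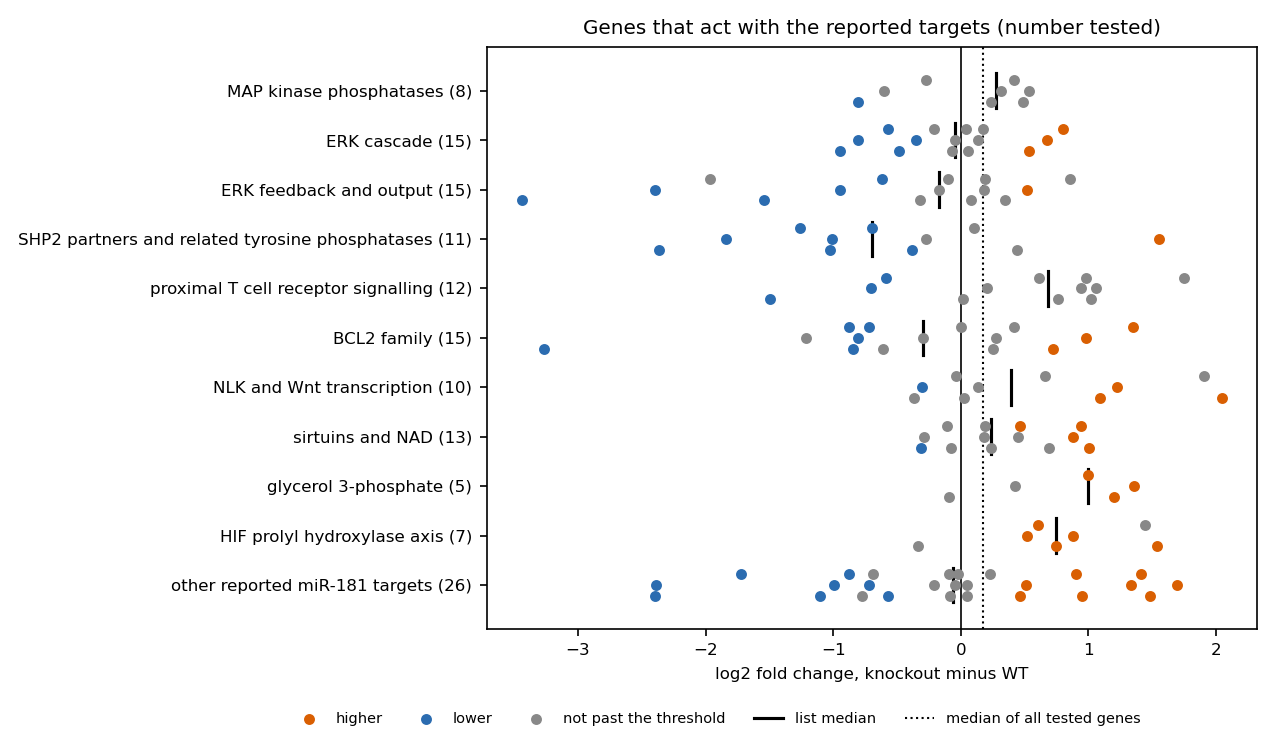
Log2 fold change (knockout minus WT) of each tested gene in 10 lists of genes that act with the 8 members and 1 list of other reported miR-181 targets, 1 point per gene, coloured by call. Black bars are list medians, which lie highest for the glycerol 3-phosphate list (1.00) and lowest for the list of SHP2 partners (-0.70).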

How the data were processed

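For the 8 libraries the authors deposited log2 CPM values made with voom, in a single table. Per the labels' protocols, polyA RNA was made into stranded single-end libraries, and per the submitters' processing notes Trimmomatic, TopHat2, featureCounts and limma were used with build mm9. Not given in the sources used here: versions, strand setting and the filter behind the table. The values match CPM computed with 0.5 added per read count and 1 per library total, and 100% came out within 0.01 of a whole read, so read counts and totals were recovered.

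The 13797 genes whose mean reached 0 log2 CPM were tested across all genes in limma 3.58.1 (R 4.3.3) with a mean-variance trend, group as the only term and Benjamini-Hochberg adjustment, two-sided. Members and gene lists were chosen with earlier results of these data known. Genes beyond the 8 members were named by rule: up to 4 called genes per list with the smallest p, close relatives of the members, the 2 genes with the highest correlation to each (predicted and unnamed genes left out) and reference markers. The script was tested on simulated data. The 20 alternatives were 12 other fits (transform, filter, scaling, thinning, weights, variance trend, replicate block, covariate, without epididymis-rich libraries) and 8 that leave out 1 library. Seed matches were searched in GENCODE M21 transcripts, matched by symbol for 93.1% of tested genes. The files and that annotation differ in build, so no positions of the tested genes are given. The positions of the miR-181 loci are those of build GRCm38.p6. Plots were drawn with matplotlib 3.10.9. Some genes that meet the rule are not reported here.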

Additional observations from a re-analysis of the deposited data

Results flagged for a closer look

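Dixon's criterion was applied to each group of 4 values of the 8 members and 47 other named genes (110 groups), where chance flags about 1 in 20. It picked out 2 values, both in genes of the lists and none in a member. Fyn stood at 5.34 log2 CPM in knockout replicate 1, above the other knockout libraries (4.98 to 5.02). Nnmt stood at 6.98 log2 CPM in WT replicate 3, above the other WT libraries (6.22 to 6.26).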

How the results depend on the processing

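With 1 library left out, 1 to 3 members were higher and 1 was lower, and the differences ran from -0.63 to 0.33 for Dusp5, from 0.62 to 0.95 for Bcl2 and from 0.37 to 0.56 for Gpd1l. Only Ptpn11 remained higher with a term for ribosomal RNA class (1 member), without the epididymis-rich libraries (1) and without WT replicate 4 or knockout replicate 3. A second member, Dusp6, was lower (2 in all) with median centring (-0.45), quantile normalization (-0.37), voom with median-ratio size factors (-0.47) and the ribosomal RNA term (-0.47). Bcl2 did not pass with that term (0.59) or without the epididymis-rich libraries (0.71), nor Gpd1l with median centring (0.32), that term (0.34) or without those libraries (0.43). Dusp5 turned sign without WT replicate 4 (0.02), knockout replicate 1 (0.05) or knockout replicate 3 (0.33), and was not tested at a filter of 2. The cause was not tested. Over all genes 58.6% of calls were higher, against 46.4% with median centring, where the median difference fell from 0.18 to 0.03, 48.2% with quantile normalization and 44.9% with voom and median-ratio size factors. Of 43 called named genes beyond the members, 35 kept their call in each alternative that tested them (Fosl1 was not tested at a filter of 2), and none turned direction. Same-numbered libraries do not deviate together throughout (correlations 0.36, 0.79, 0.24 and -0.36), and no label pairs them. With the replicate block the members gave 3 higher and 1 lower, and all genes 3232 and 2136. Dusp5 had 8 and 9 reads in the shallowest libraries, and with reads thinned to equal depth its difference was -0.03.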
